A study of Mus musculus with 3 samples.

Results

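The matrix metalloproteases (Mmp genes), the ADAMTS proteases, the ADAMTS-like proteins (Adamtsl genes) and the tissue inhibitors of metalloproteases (Timp genes) were followed in mouse muscle cells in which the transcription factor Tead4 was silenced. Members were taken by symbol from the deposited gene table: every name made of Mmp, Adamts, Adamtsl or Timp followed by a digit. This gave 46 of 20162 genes, namely 20 Mmp, 17 Adamts, 5 Adamtsl and 4 Timp genes. Of these, 34 had at least 10 raw reads summed over the libraries and are called detected, and 12 did not.

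Metalloproteases hold a zinc ion in the active site and cut proteins of the extracellular matrix. They are made as inactive precursors, are switched on by removal of a propeptide, and are blocked by TIMPs. ADAMTS proteases carry thrombospondin repeats and cut procollagens or large proteoglycans, while ADAMTS-like proteins have the repeats but no protease domain. In muscle these genes are known for remodelling the matrix around fibres as myoblasts migrate and fuse and as muscle regenerates.

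The cells were C2C12, an established mouse myoblast line that forms myotubes when serum is lowered. All 3 populations had taken up a lentivirus that expresses a short hairpin RNA (shRNA), under puromycin selection. They were grown in DMEM with 10% FCS and then moved to 2% horse serum for 7 days. 1 population carried a control shRNA (ShSC) and the others carried different shRNAs against Tead4, named hairpin A (ShA) and hairpin B (ShB) here. Each population gave 1 library of polyadenylated RNA. The labels name no second culture of any population. The p-values therefore rest on the spread between single libraries with different shRNAs, not between replicate cultures. That spread takes in any difference between the hairpins.

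The libraries held 16412139 (control), 19918954 (hairpin A) and 15594305 (hairpin B) counted reads. Tead4 itself stood at 78.2 CPM (a read count scaled for library depth and composition) in the control library, 19.7 CPM with hairpin A and 10.8 CPM with hairpin B, which matched the labels. The 8 myotube markers were all present. In the test described below, 4 of them (Myh3, Tnnt3, Myog and Ckm) fell, beside 4.48% of all genes tested. Acta1, Des, Mylpf and Myh8 did not pass it. The summed level of the 8 was 22597 CPM in the control library, 13297 CPM with hairpin A and 16319 CPM with hairpin B. The 3 fibroblast markers in the table (Col1a1, Pdgfra and Lum) summed to 139.9 CPM, 135 CPM and 75.7 CPM in the same order, and none of them passed the test. The 4 endothelial markers summed to between 0.934 and 1.40 CPM. The 2 macrophage markers in the table, Cd68 and Csf1r, summed to between 1.56 and 3.36 CPM, and the 1 adipocyte marker, Fabp4, reached at most 0.0623 CPM. The part of the lower myotube markers in the results below was not tested, and in such bulk libraries fewer cells of a type and less RNA per cell cannot be told apart.

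Among the members with enough reads for a test, 6 rose with Tead4 shRNA and 2 fell. Those that rose were the cell-surface protease Mmp14, its partner Mmp2, the proteoglycan-cutting Adamts4, the microfibril-associated Adamts10, the fibrillin-binding Adamtsl2 and the inhibitor Timp1. The procollagen protease Adamts14 and the microfibril protein Adamtsl5 fell. The test was edgeR's quasi-likelihood test on raw counts, with both Tead4 shRNA libraries set against ShSC, and with adjustment over all 14478 genes tested and a threshold of 0.05. Of 28 members tested, 28.6% were called, beside 9.82% of all genes tested (5.34% rose and 4.48% fell). The median log2 fold change of the tested members was 0.42, beside 0.02 for all genes tested. A gene entered the test if a single library had enough reads, so these 28 are not all members.

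The spread in this test comes from 2 libraries with different shRNAs, and the lone control library is assumed to vary like them. Pooling all 3 libraries to set the dispersion counts any difference between shRNA and control as spread. With that dispersion, the likelihood-ratio test of edgeR left 0 members and 0 genes called, so not Tead4 either. At an unadjusted p under 0.05 it had 0 members and 540 genes.

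The upstream sequences of the called members are shown first, because members that move together can be read against 2 motifs chosen with the gene lists: GGAATG, the core that TEAD factors bind, and TGANTCA, the AP-1 element known from metalloprotease promoters. Both strands were searched in the 250 bases before each RefSeq start (GRCm38.p6), and TGANTCA reads the same on both strands. Promoter windows were matched by symbol for 32 of 46 members, including 5 of the 8 called. Capitals mark a GGAATG match, and all sequences run 5′ to 3′ on the gene's own strand.
Mmp14, which rose (chr14:54431348-54431597, plus strand): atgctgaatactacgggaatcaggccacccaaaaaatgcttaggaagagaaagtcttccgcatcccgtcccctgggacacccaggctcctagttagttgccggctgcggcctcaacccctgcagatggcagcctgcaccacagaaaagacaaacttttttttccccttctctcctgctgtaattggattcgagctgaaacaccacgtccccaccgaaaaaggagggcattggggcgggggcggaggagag
Timp1, which rose (chrX:20869916-20870165, plus strand): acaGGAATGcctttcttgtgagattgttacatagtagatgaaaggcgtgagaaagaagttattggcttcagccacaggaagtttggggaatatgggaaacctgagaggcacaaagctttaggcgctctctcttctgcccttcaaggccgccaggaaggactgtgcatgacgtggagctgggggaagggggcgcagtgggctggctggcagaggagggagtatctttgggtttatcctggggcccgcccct
Adamtsl2, which rose (chr2:27079129-27079378, plus strand): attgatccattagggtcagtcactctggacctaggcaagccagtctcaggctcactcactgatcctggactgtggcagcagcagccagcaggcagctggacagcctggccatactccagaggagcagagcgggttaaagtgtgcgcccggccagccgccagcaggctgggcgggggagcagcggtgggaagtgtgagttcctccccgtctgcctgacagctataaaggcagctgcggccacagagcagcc
Adamts14, which fell (chr10:61273420-61273669, minus strand): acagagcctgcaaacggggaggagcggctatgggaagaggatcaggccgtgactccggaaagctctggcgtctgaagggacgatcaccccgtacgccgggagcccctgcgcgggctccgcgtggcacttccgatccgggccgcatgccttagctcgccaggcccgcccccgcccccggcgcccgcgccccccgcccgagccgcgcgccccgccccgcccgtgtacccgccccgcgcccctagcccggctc
Adamtsl5, which fell (chr10:80348449-80348698, minus strand): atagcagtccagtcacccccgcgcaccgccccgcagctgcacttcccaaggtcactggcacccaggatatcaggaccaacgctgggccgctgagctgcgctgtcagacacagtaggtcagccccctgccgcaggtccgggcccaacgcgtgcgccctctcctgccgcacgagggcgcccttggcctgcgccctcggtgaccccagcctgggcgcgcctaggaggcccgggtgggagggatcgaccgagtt

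GGAATG was present in 1 of the 35 member windows, that of Timp1, at 247 to 242 bases before the start. It was present in 12.6% of all 32851 windows of this length. None of the 5 windows printed above held TGANTCA, which was present in 6.75% of all windows. The share of G and C was 76.4% for Adamts14 and 70.8% for Adamtsl5, which fell. It was 55.2% for Mmp14, 54.4% for Timp1 and 62.8% for Adamtsl2, which rose, beside a median of 52.4% over all windows. Among tested members that were not called, this share ran from 40.4% (Mmp13) to 80% (Adamtsl3). High shares were therefore not particular to the genes that fell. A match is a description of letters in this window only.

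TGANTCA was found in 5 of the 35 member windows (14.3%), beside 6.75% of all windows. All 5 belong to genes of a run of metalloproteases on chromosome 9: Mmp13, Mmp12, Mmp3, Mmp10 and Mmp7. The run also holds Mmp8 and Mmp27, whose windows held no match. Mmp1a, Mmp1b and Mmp20, which lie between these genes, are not among the 46 members. Their last 80 bases before the start (GRCm38.p6, plus strand) are shown because the match sits close to the start in each, with the match in capitals.
Mmp13 (chr9:7272434-7272513): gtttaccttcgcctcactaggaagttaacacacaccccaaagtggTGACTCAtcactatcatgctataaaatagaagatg
Mmp12 (chr9:7347294-7347373): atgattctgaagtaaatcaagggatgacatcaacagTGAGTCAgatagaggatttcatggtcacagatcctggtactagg
Mmp3 (chr9:7445742-7445821): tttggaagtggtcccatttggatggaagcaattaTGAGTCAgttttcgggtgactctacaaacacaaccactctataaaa
Mmp10 (chr9:7502262-7502341): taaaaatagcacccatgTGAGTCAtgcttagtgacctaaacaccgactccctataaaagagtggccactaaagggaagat
Mmp7 (chr9:7692010-7692089): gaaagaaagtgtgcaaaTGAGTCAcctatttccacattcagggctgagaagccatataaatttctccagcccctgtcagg

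The match began 35 bases before the start in Mmp13, 44 in Mmp12, 46 in Mmp3 and 63 in both Mmp10 and Mmp7. Mmp12 and Mmp7 each have a further RefSeq start whose window held no match. The members in this run, which code for secreted enzymes such as the collagenase Mmp13 and the stromelysins Mmp3 and Mmp10, were close to silent in all 3 libraries. Mmp13 had the most reads, with 19 in the control library, 3 with hairpin A and 5 with hairpin B. Mmp3 had 7, 4 and 2 reads in the same order and Mmp7 had 7, 0 and 0. Mmp12 had 0, 3 and 2 reads, Mmp8 had 2, 0 and 0, Mmp27 had 0, 0 and 2, and Mmp10 had 1 read in the hairpin A library alone. Mmp12 overlaps exons of a neighbouring gene, Mmp1b, on the opposite strand, and the library kit does not mark strand.

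**Figure D1:**
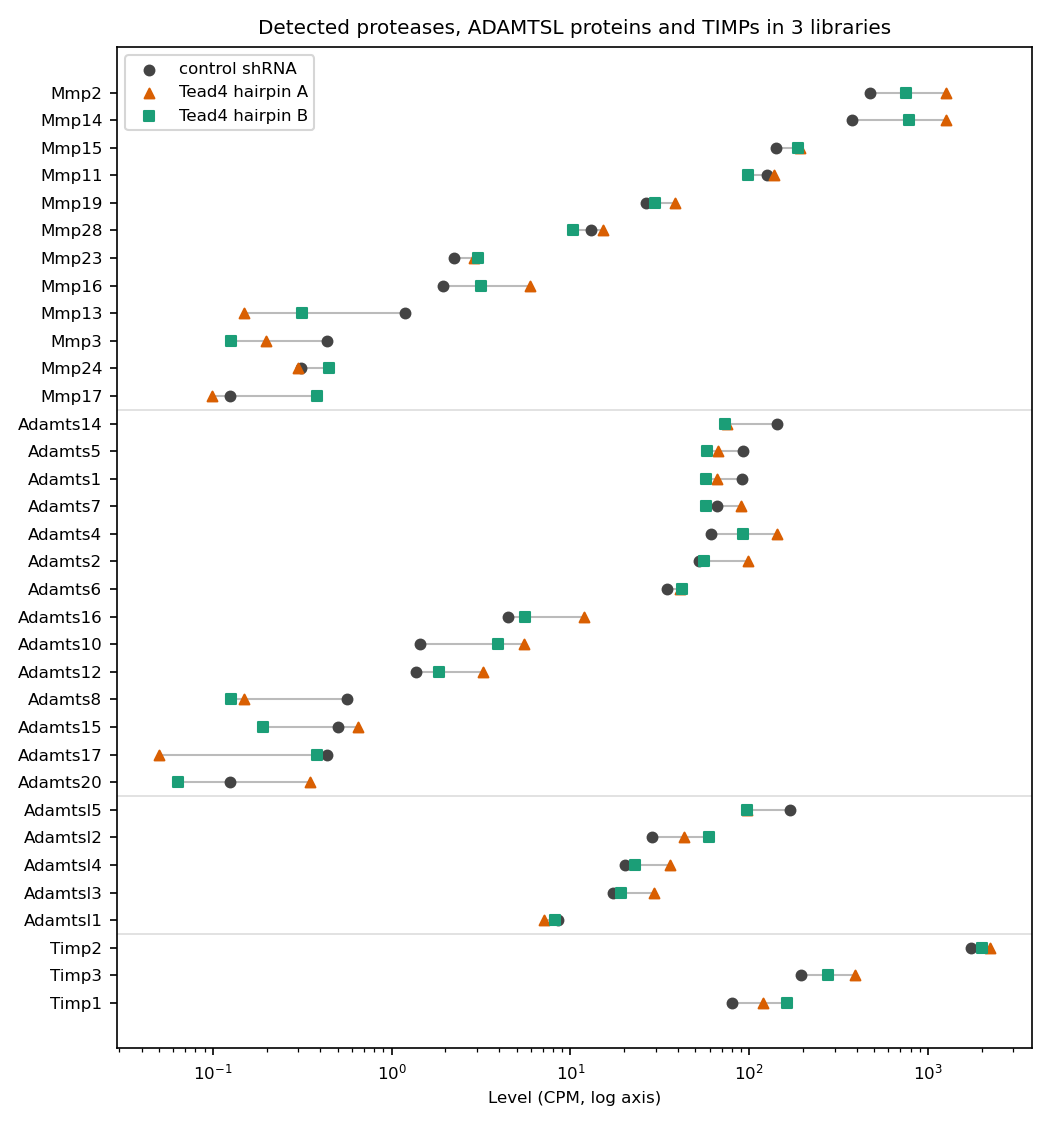
Level of the 34 detected members in CPM (log axis) in the control shRNA library (circles), the Tead4 hairpin A library (triangles) and the Tead4 hairpin B library (squares), with a line spanning the 3 values. Timp2, Mmp2 and Mmp14 lie at the right, and 7 members have every library under 1 CPM, where a few reads set the position.

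The membrane-anchored metalloproteases were led by Mmp14, which cuts fibrillar collagen at the cell surface and activates the Mmp2 precursor there. Mmp14 had 6010 reads in ShSC, 25490 with hairpin A and 12394 with hairpin B, or 374 CPM, 1267 CPM and 787 CPM. Both Tead4 shRNA libraries lay above the control, hairpin A more so. Relative to ShSC the log2 ratio was 1.76 with hairpin A (exact 95% interval from counting 1.72 to 1.80) and 1.07 with hairpin B (1.03 to 1.12). The fitted log2 fold change over the pair was 1.46 (SE 0.29, edgeR adjusted p = 0.00210). Mmp14 and Adamts10 were the detected members at least 2-fold higher in both libraries with intervals that exclude no change, a criterion met by 4.41% of the 15500 detected genes.

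Its transmembrane relatives Mmp15 and Mmp16 did not pass the test. Mmp15 stood at 141 CPM in the control library, 193 CPM with hairpin A and 188 CPM with hairpin B (log2 fold change 0.44, SE 0.23, edgeR adjusted p = 0.285). The 2 shRNA libraries were close to each other and above the control. Mmp16 had 31, 120 and 50 reads in the order control, hairpin A, hairpin B, with log2 ratios of 1.63 and 0.72, and was not called (adjusted p = 0.132 in the same test). Mmp23, a membrane enzyme released by cleavage, had 36, 58 and 48 reads, and both counting intervals included no change. Mmp24 (5, 6 and 7 reads) and the lipid-anchored Mmp17 (2, 2 and 6 reads) were too low for a test. The other lipid-anchored member, Mmp25, had 2 reads in the control library and 0 with each Tead4 shRNA.

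Among the secreted metalloproteases, Mmp2, which cuts gelatin and basement membrane collagen, was the most abundant. It had 7641 reads in ShSC, 25239 with hairpin A and 11801 with hairpin B, or 476 CPM, 1255 CPM and 749 CPM. The order of the libraries was the same as for Mmp14. The log2 ratio was 1.40 with hairpin A (1.36 to 1.44) and 0.65 with hairpin B (0.61 to 0.70), and the fitted log2 fold change was 1.07 (SE 0.29, edgeR adjusted p = 0.0202). Mmp2 and Mmp14 together took 73.1% of the reads of all Mmp genes in the control library (95% exact interval 72.4 to 73.7), 86.5% with hairpin A (86.2 to 86.8) and 82.1% with hairpin B (81.6 to 82.5).

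None of the remaining secreted metalloproteases tested (Mmp11, Mmp13, Mmp19 and Mmp28) was called by edgeR, beside 9.82% of all genes tested. Of these, 1, Mmp13, had an unadjusted edgeR p under 0.05 (0.0333), beside 3143 of all 14478 genes tested. Counts this small do not set these genes apart from all genes. DESeq2 called 0 of them and gave no adjusted p for Mmp13. Mmp11, which furin activates inside the cell, stood at 126 CPM in the control library, 137 CPM with hairpin A and 99.0 CPM with hairpin B. The control lay between the shRNA libraries, and the fitted log2 fold change was -0.09 (SE 0.24). Mmp19, a secreted enzyme of basement membrane turnover, stood at 26.4 CPM, 38.4 CPM and 29.8 CPM in the same order (log2 fold change 0.37, SE 0.25), and the interval with hairpin B included no change. Its exons overlap those of Tmem198b on the opposite strand. Mmp28 stood at 13.1 CPM, 15.2 CPM and 10.3 CPM (log2 fold change -0.03, SE 0.30), a sign that turned with another scaling of the libraries (0.01 with upper-quartile and with total-count scaling). Mmp13 was the detected member at least 2-fold lower in both libraries, with log2 ratios of -2.99 (-5.39 to -1.22) and -1.90 (-3.68 to -0.43), but it did not pass the test (log2 fold change -2.35, SE 1.03, edgeR adjusted p = 0.178). That criterion was met by 3.05% of detected genes. Mmp9, the other gelatinase, had 1 read in all, and Mmp21 had 0, where a count of 0 allows up to 0.187 CPM in the control library, 0.149 CPM with hairpin A and 0.190 CPM with hairpin B.

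**Figure D2:**
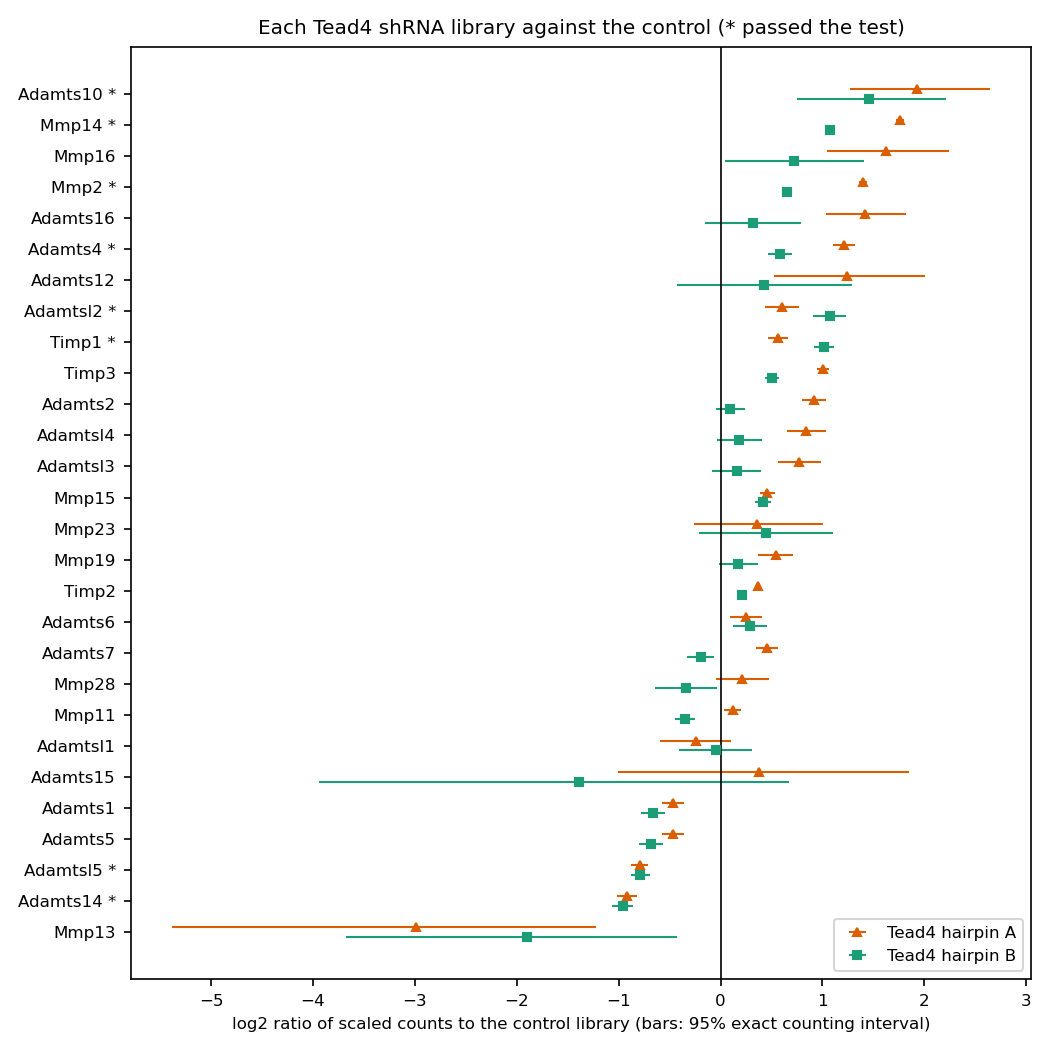
Log2 ratio of scaled counts of the Tead4 hairpin A library (triangles) and the Tead4 hairpin B library (squares) to the control library for the 28 tested members, ordered by fitted log2 fold change; bars are 95% exact counting intervals and a star marks members that passed the test. Mmp14 and Mmp2 lie further from 0 with hairpin A, Adamtsl2 and Timp1 with hairpin B, and Adamts14 and Adamtsl5 have nearly the same ratio with both.

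The ADAMTS proteases that remove the amino-terminal propeptide of fibrillar procollagens are Adamts2, Adamts3 and Adamts14. Adamts14 fell: it had 2287 reads in ShSC, 1516 with hairpin A and 1156 with hairpin B, or 142 CPM, 75.4 CPM and 73.4 CPM. The shRNA libraries lay close together and well under the control. The log2 ratio was -0.92 with hairpin A (-1.01 to -0.82) and -0.96 with hairpin B (-1.06 to -0.85), and the fitted log2 fold change was -0.94 (SE 0.21, edgeR adjusted p = 0.00575). Adamts2 stood at 52.1 CPM, 98.3 CPM and 55.8 CPM in the order control, hairpin A, hairpin B. It was higher with hairpin A alone (log2 ratio 0.91, 0.80 to 1.03), since the interval with hairpin B ran from -0.04 to 0.24, and it was not called (log2 fold change 0.57, SE 0.27). Adamts3 had 2 reads in all, 1 with each Tead4 shRNA.

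Of the proteases that cut aggrecan, versican and related proteoglycans, Adamts4 rose. It had 984 reads in ShSC, 2859 with hairpin A and 1450 with hairpin B, or 61.3 CPM, 142 CPM and 92.0 CPM. The log2 ratio was 1.21 with hairpin A (1.11 to 1.32) and 0.59 with hairpin B (0.47 to 0.70), and the fitted log2 fold change was 0.93 (SE 0.26, edgeR adjusted p = 0.0231). Both libraries were above the control and apart from each other. Adamts1 and Adamts5, which have the same kind of substrate and are next to each other on chromosome 16, were lower in both libraries without passing the test. Adamts1 had 1464, 1332 and 908 reads in the order control, hairpin A, hairpin B, and Adamts5 had 1486, 1346 and 909. Their log2 ratios were -0.46 and -0.47 with hairpin A and -0.66 and -0.68 with hairpin B, so the pair differed by less than the counting intervals (for Adamts1 -0.57 to -0.35 with hairpin A and -0.78 to -0.54 with hairpin B). The fitted log2 fold change was -0.56 (SE 0.22) for Adamts1 and -0.57 (SE 0.22) for Adamts5, with edgeR adjusted p = 0.114 and 0.106. Per length of exon the levels differed, at 18.7 CPM per kb for Adamts1 and 8.58 CPM per kb for Adamts5 in the control library.

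The other proteoglycan-cutting members were at the edge of detection. Adamts8 had 9, 3 and 2 reads and Adamts15 had 8, 13 and 3 in the order control, hairpin A, hairpin B. Adamts20 had 2, 7 and 1, and Adamts9 had 0 in every library. Every counting interval of Adamts8, Adamts15 and Adamts20 included no change. Of the proteoglycans they cut, versican (Vcan) was the detected one of the 3 lecticans in the table, at 146 CPM in the control library, 184 CPM with hairpin A and 101 CPM with hairpin B. It was not called (log2 fold change -0.03, SE 0.27), and Bcan and Ncan had at most 1 read.

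Adamts10, whose protein associates with fibrillin microfibrils, rose from a low level. It had 23 reads in ShSC, 110 with hairpin A and 62 with hairpin B, or 1.43 CPM, 5.47 CPM and 3.93 CPM. The log2 ratio was 1.93 (1.27 to 2.65) with hairpin A and 1.46 (0.75 to 2.22) with hairpin B, and the fitted log2 fold change was 1.71 (SE 0.50, edgeR adjusted p = 0.0306). DESeq2 and limma-voom ended this call (adjusted p = 0.184 and 0.0720). Its relative Adamts6 stood at 34.5 CPM, 41.1 CPM and 42.2 CPM (log2 fold change 0.27, SE 0.23) and was not called.

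Adamts7 and Adamts12, related proteases known to cut cartilage oligomeric matrix protein, were not called. Adamts7 stood at 65.7 CPM in the control library, 90.1 CPM with hairpin A and 57.4 CPM with hairpin B. Its intervals lay on opposite sides of no change, 0.35 to 0.57 with hairpin A and -0.33 to -0.07 with hairpin B. Adamts7 shares 122 bases of exon with Tbc1d2b on the opposite strand. Adamts12 had 22, 65 and 29 reads, and Adamts16 had 72, 241 and 88. Both were more than 2-fold higher with hairpin A (log2 ratios 1.24 and 1.42), while their intervals with hairpin B included no change. Adamts17 had 7, 1 and 6 reads, and Adamts18 had 1, 3 and 5.

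All 5 ADAMTS-like genes were detected and tested, and 1 rose and 1 fell, beside 5.34% and 4.48% of all genes tested. Adamtsl5, a secreted protein that binds fibrillin, fell: it had 2707 reads in ShSC, 1955 with hairpin A and 1540 with hairpin B, or 169 CPM, 97.2 CPM and 97.7 CPM. The shRNA libraries were nearly equal. The log2 ratio was -0.79 with each (-0.88 to -0.71 with hairpin A and -0.88 to -0.70 with hairpin B), and the fitted log2 fold change was -0.79 (SE 0.22, edgeR adjusted p = 0.0207). Adamtsl2, which binds fibrillin and latent TGF-beta binding protein, rose from 28.5 CPM in the control library to 43.2 CPM with hairpin A and 59.9 CPM with hairpin B. The log2 ratio was 0.60 (0.44 to 0.77) with hairpin A and 1.07 (0.91 to 1.23) with hairpin B, and the fitted log2 fold change was 0.85 (SE 0.25, edgeR adjusted p = 0.0329). RLE scaling and DESeq2 ended this call (adjusted p = 0.0574 and 0.107). Adamtsl3 and Adamtsl4 were higher with hairpin A alone. Adamtsl3 stood at 17.2 CPM, 29.4 CPM and 19.2 CPM (log2 fold change 0.50, SE 0.27), and Adamtsl4, known for the microfibrils that suspend the lens, at 20.1 CPM, 36.1 CPM and 22.8 CPM (log2 fold change 0.55, SE 0.27). Adamtsl1 stood between 7.16 and 8.47 CPM in the 3 libraries.

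The inhibitors Timp1, Timp2 and Timp3 were higher with both Tead4 shRNAs by counting intervals, and of these Timp1 passed the test. Timp1, which inhibits secreted metalloproteases and is a weak inhibitor of Mmp14, had 1291 reads in ShSC, 2387 with hairpin A and 2556 with hairpin B, or 80.4 CPM, 119 CPM and 162 CPM. The log2 ratio was 0.56 (0.46 to 0.66) with hairpin A and 1.01 (0.92 to 1.11) with hairpin B, and the fitted log2 fold change was 0.80 (SE 0.25, edgeR adjusted p = 0.0394). RLE scaling and DESeq2 ended this call (adjusted p = 0.0655 and 0.0704). Timp3, which binds to the matrix and also inhibits ADAMTS proteases, stood at 194 CPM, 389.8 CPM and 276 CPM in the order control, hairpin A, hairpin B. Its log2 ratios were 1.003 (0.94 to 1.06) and 0.50 (0.44 to 0.57), and it missed the threshold (log2 fold change 0.78, SE 0.26, edgeR adjusted p = 0.0633). Total-count scaling and limma-voom called it (adjusted p = 0.0420 and 0.0438), as did the fit without a filter on low counts (0.0229) and the newer quasi-likelihood method (0.0455).

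Timp2, which bridges Mmp14 and the Mmp2 precursor at the cell surface, had the most reads of all members. It had 27853 reads in ShSC, 44901 with hairpin A and 31737 with hairpin B, or 1735 CPM, 2232 CPM and 2014 CPM. The control was the lowest, but the fitted log2 fold change was 0.29 (SE 0.25, edgeR adjusted p = 0.567). Timp4 had 9 reads in the control library and 0 in each Tead4 shRNA library, fewer than 10 in all. Timp1 lies in an intron of Syn1 and Timp3 in an intron of Syn3, on the opposite strand in both cases and with no shared exon. Syn1 stood at 17.7 CPM, 11.6 CPM and 10.5 CPM, the reverse order of Timp1, and Syn3 had 5, 6 and 0 reads.

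Levels of different members were compared per kilobase of exon, with lengths from GENCODE M21, which is not the authors' annotation. In the control library Timp2 was highest at 468 CPM per kb, followed by Mmp2 at 155, Timp1 at 90.5, Mmp14 at 89.5 and Adamtsl5 at 79.3. With hairpin A the order was Timp2 (602 CPM per kb), Mmp2 (408), Mmp14 (303) and Timp1 (134). With hairpin B it was Timp2 (543), Mmp2 (243), Mmp14 (188) and Timp1 (183). The summed level of the Mmp genes was 341 CPM per kb in the control library, 827 with hairpin A and 526 with hairpin B, and that of the Timp genes was 599.5, 818 and 784. The ratio of these Mmp and Timp sums was 0.569, 1.01 and 0.671 in the same order. In CPM, not scaled for length, the Mmp genes summed to 1163 in the control library, 2916 with hairpin A and 1870 with hairpin B. Without Mmp2 and Mmp14 these unscaled sums were 313 CPM, 394 CPM and 335 CPM in the same order.

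**Figure D3:**
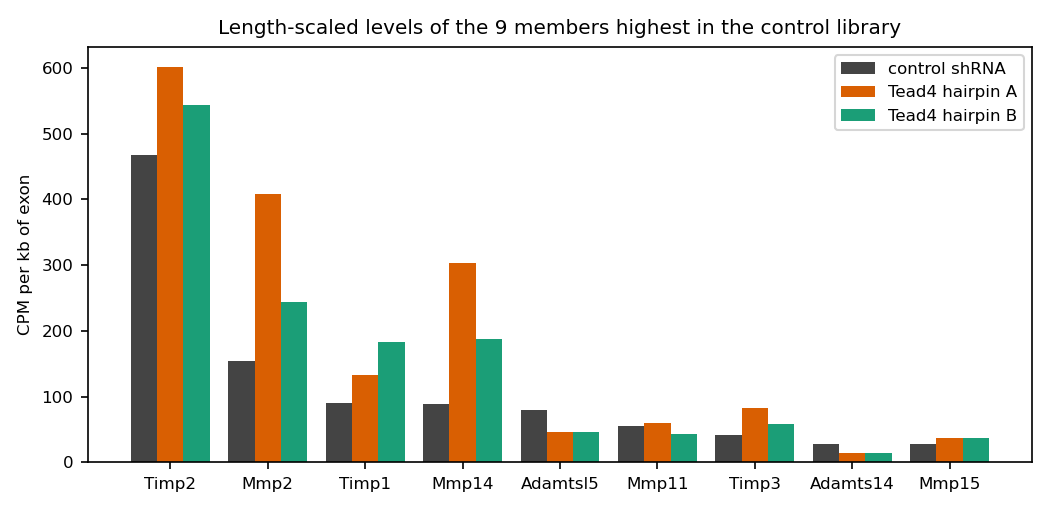
Level per kilobase of exon (CPM per kb, linear axis from 0) of the 9 members highest in the control library, in the control shRNA, Tead4 hairpin A and Tead4 hairpin B libraries (1 bar per library, no replicates). Mmp2 and Mmp14 are tallest with hairpin A, at 408 and 303 CPM per kb, while Adamtsl5 and Adamts14 are tallest in the control library.

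The members' changes were then placed against all genes. Among the 34 detected members, 19 had a counting interval above no change with hairpin A, beside 31.2% of detected genes, and 6 had one below it, beside 30.8%. With hairpin B, 11 members had an interval above no change (28% of detected genes) and 8 below it (26.6%). Both shRNA libraries are set against the same control library. In the hairpin A library 8 members (beside 8.5% of detected genes) were at least 2-fold higher with an interval that excludes no change: Mmp14, Mmp2, Mmp16, Adamts4, Adamts10, Adamts12, Adamts16 and Timp3. By the same criterion there were 4 in the hairpin B library (beside 6.29% of detected genes), which were Mmp14, Adamts10, Adamtsl2 and Timp1. Members at least 2-fold lower in this way were Mmp13 and Adamts17 with hairpin A (2 members, beside 5.88% of detected genes) and Mmp13 with hairpin B (1 member, beside 4.76%). The median log2 ratio of the tested members was 0.50 with hairpin A and 0.20 with hairpin B, beside 0.00415 and 0.0188 for all genes tested.

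**Figure D4:**
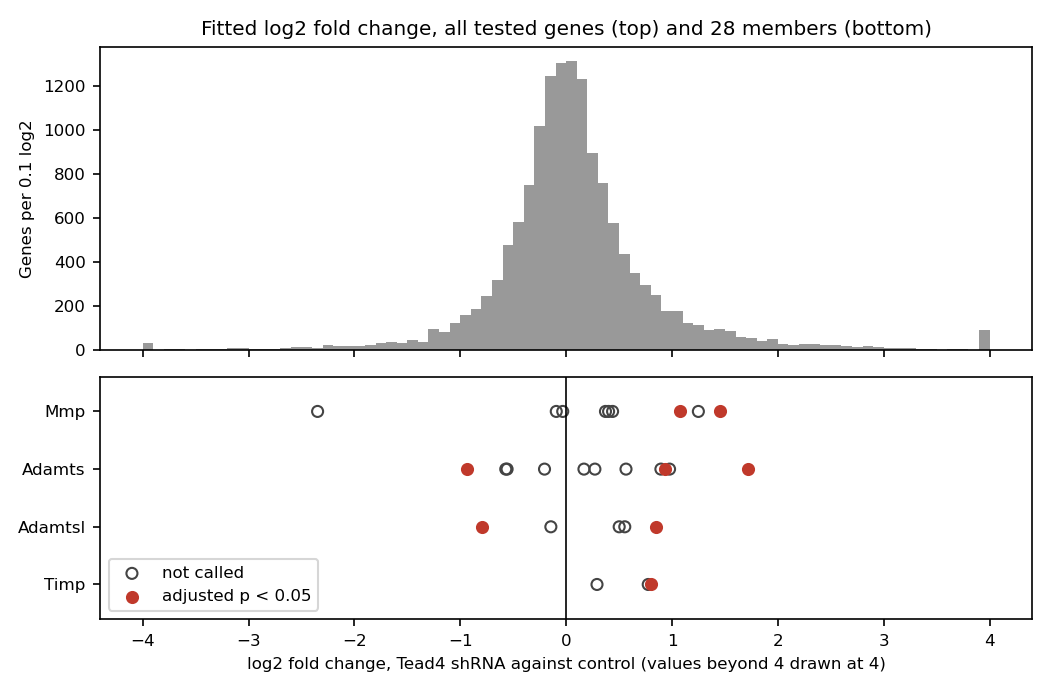
Top, histogram of the fitted log2 fold change (Tead4 shRNA against control) of all 14478 genes tested; bottom, the 28 tested members by family on the same axis, filled where the adjusted p was below 0.05. The median member lies at 0.42 and the median gene at 0.02, and the called members lie between -0.94 and 1.71.

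The shRNAs were also compared with each other, with 1 library for each and therefore no replicate check. The ratio of hairpin B to hairpin A had an interval below no change for 18 of 34 detected members, beside 24.1% of detected genes, and above it for 2 members, beside 23.8%. The 2 members higher with hairpin B were Timp1 (log2 ratio of B to A 0.45, 0.37 to 0.53) and Adamtsl2 (0.47, 0.34 to 0.60). Mmp2 (-0.74, -0.78 to -0.71), Mmp14 (-0.69, -0.72 to -0.66), Adamts4 (-0.63, -0.72 to -0.54) and Adamts2 (-0.82, -0.93 to -0.70) were among those lower with hairpin B. For Adamts14 (-0.04, -0.15 to 0.07), Adamtsl5 (0.01, -0.09 to 0.11) and Mmp15 (-0.04, -0.11 to 0.03) the interval included no difference. The level of Tead4 was lower with hairpin B than with hairpin A, and whether the amount of Tead4 has a part in these differences was not tested.

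Genes that act with these proteases were read from 6 lists. Genes of metalloprotease precursor activation were the convertases of the furin type, the plasminogen activators, the receptor Plaur and plasminogen. Of 6 tested, 1 rose and 0 fell, beside 5.34% and 4.48% of all genes tested. Their median log2 fold change was 0.62, beside 0.02 for all genes tested. Urokinase (Plau) rose from 37.6 CPM in the control library to 82.8 CPM with hairpin A and 71.8 CPM with hairpin B (log2 fold change 1.04, SE 0.23). Furin, which activates the Mmp14 and Mmp11 precursors, stood at 120 CPM, 203 CPM and 174 CPM and was not called (log2 fold change 0.65, SE 0.24, edgeR adjusted p = 0.0924). Plasminogen (Plg) had 0 reads in all libraries.

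The next list held inhibitors other than TIMPs, the testicans and a clearance receptor. Of 4 tested genes, 3 rose and 0 fell (median 1.13), beside 5.34% and 4.48% of all genes tested. Serpine2, an inhibitor of serine proteases, rose from 29.1 CPM in ShSC to 56.6 CPM with hairpin A and 54.7 CPM with hairpin B (log2 fold change 0.94, SE 0.23). The testican proteoglycan Spock2 rose from 12.1 CPM to 37.7 CPM and 22.7 CPM (1.33, SE 0.30). Reck, a membrane-anchored metalloprotease inhibitor, rose from 2.43 CPM to 8.55 CPM and 6.66 CPM (1.65, SE 0.41), a call that DESeq2 ended (adjusted p = 0.0739). The uptake receptor Lrp1 was not called (0.21, SE 0.28).

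None of the 9 tested ADAM proteases, the membrane-bound relatives of the ADAMTS enzymes, was called by edgeR's quasi-likelihood test, and their median was 0.07. At an unadjusted p under 0.05 there were 3, and DESeq2 called 0. The most abundant, Adam9 and Adam10, had log2 fold changes of -0.16 (SE 0.23) and 0.08 (SE 0.23). Of 8 tested genes of other matrix proteases and procollagen processing, 1 rose and 0 fell, beside 5.34% and 4.48% of all genes tested. Their median log2 fold change was 0.19. The one that rose was Pcolce, which enhances removal of the carboxy-terminal propeptide of procollagens, at 189 CPM, 416 CPM and 308 CPM in the order control, hairpin A, hairpin B (log2 fold change 0.94, SE 0.26). Its protease Bmp1 was not called (-0.06, SE 0.24). Of 9 tested AP-1 and ETS factors (median 0.53), 1 rose and 0 fell, beside 5.34% and 4.48% of all genes tested. Ets1 rose from 19.2 CPM to 47.1 CPM and 33.4 CPM (1.07, SE 0.26). Jun (0.53, SE 0.23) and Fos (1.53, SE 0.51, edgeR adjusted p = 0.0608), which bind the TGANTCA element, were not called. Fos had 23, 78 and 70 reads in the order control, hairpin A, hairpin B. It was at least 2-fold higher in both libraries, with log2 ratios of 1.44 (0.75 to 2.18) and 1.63 (0.94 to 2.38). That criterion was met by 4.41% of detected genes. With total-count scaling, and without a filter on low counts, 2 genes of this list rose.

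**Figure D5:**
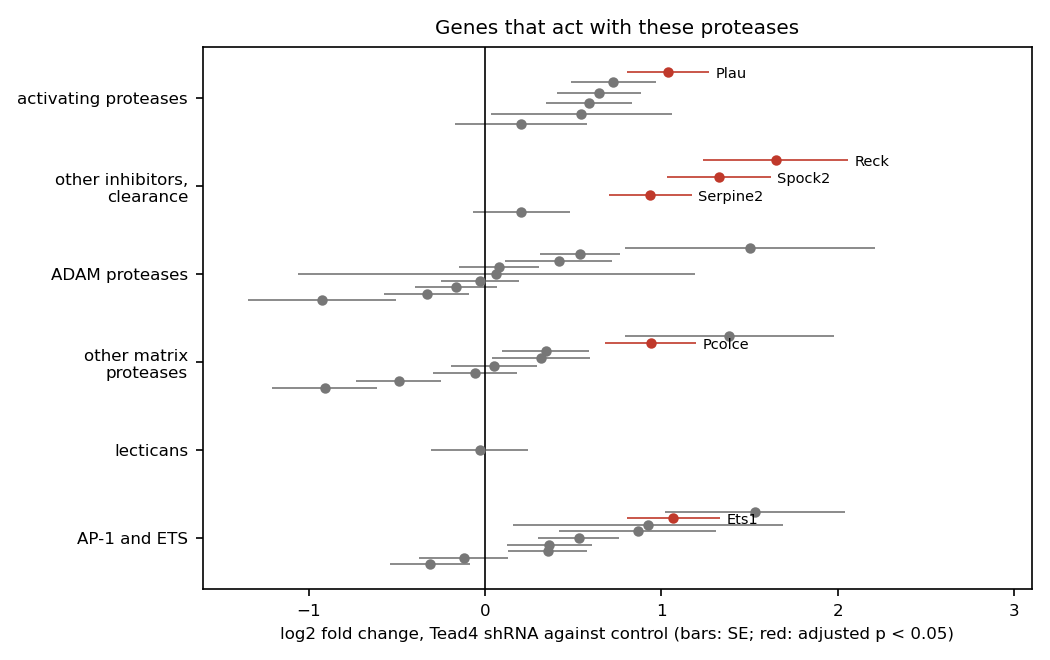
Fitted log2 fold change (Tead4 shRNA against control, bars are SE) of the tested genes of 6 lists of genes that act with these proteases; genes with an adjusted p below 0.05 are in red and named. The list of inhibitors other than TIMPs, testicans and the clearance receptor holds 3 of the 6 named genes.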

How the data were processed

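Polyadenylated RNA of 3 C2C12 libraries was sequenced as single-end reads of 72 bases. The authors' deposited table holds 1 raw count for each Ensembl gene in each library, per the file headers, beside a deposited normalized score, which equalled the raw count times 1 factor per library (1.00, 0.801 and 1.02 for control, hairpin A and hairpin B), rounded, with 0 values differing. Named without a role in the submitters' processing notes are mm9, DESeq, Cufflinks 0.8.2 and TopHat 1.0.12. The counting program, annotation and treatment of multi-mapping reads are not given in the sources used here.

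Tests on the raw counts used edgeR 4.0.16 under R 4.3.3 (filterByExpr, TMM, older quasi-likelihood method, Benjamini-Hochberg adjustment over 14478 genes), 2 Tead4 shRNA libraries against 1 control, which leaves 1 residual degree of freedom. SE is the absolute log2 fold change over the square root of F. On simulated counts over 14478 genes for this comparison, 62 of 100 genes changed 2-fold and 97 of 100 changed 4-fold were called. Of the unchanged genes, 11 were called as well. Changed genes were drawn above a minimum level only, and the simulated control varied like the shRNA libraries. These rates therefore do not cover members with few reads, such as Adamts10, Mmp16 and Mmp13, and do not check the lone control. Ratios of single libraries carry 95% exact (Clopper-Pearson) intervals. A count of 0 allows 3 counts. Intervals and floors cover counting error only. DESeq2 1.42.0, limma 3.58.1, other scalings and no filter were alternatives.

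Members and lists were chosen with earlier results of these data known. Members were named in full if called, 2-fold changed in both libraries, a detected Timp gene or at a mean of at least 10 CPM; of each list, the called genes or the 2 most abundant. Furin, Plg, Lrp1, Bmp1, Bcan, Ncan, Adam8, Adam15, Adam23, Jun and Fos were named after their values were seen. The 6 lists: activating proteases (Furin, Pcsk5, Pcsk6, Pcsk7, Plau, Plat, Plaur, Plg); other inhibitors and clearance (Reck, Tfpi2, Serpine2, A2m, Spock1, Spock2, Spock3, Papln, Lrp1); ADAM genes; other matrix proteases (Bmp1, Tll1, Tll2, Pcolce, Pcolce2, Htra1, Fap and cathepsins); lecticans; AP-1 and ETS. Of these, A2m, Spock3, Tfpi2, Adam33, Tll2 and Acan were not analysed here, and 1 further listed gene is not reported here. Sequences are RefSeq's (GRCm38.p6). Exon lengths and overlaps are from GENCODE M21, which matched 46 of 46 members. Exons of 9 members overlap another gene on the opposite strand: Adamts7, Adamts8, Adamts9, Mmp7, Mmp12, Mmp19, Mmp24, Mmp28 and Timp4.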

Additional observations from a re-analysis of the deposited data

How the results depend on the processing

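Counts of called genes depended on the test. DESeq2 called 3 members higher and 464 genes higher and 374 lower in all. edgeR's likelihood-ratio test with the dispersion over all 3 libraries as 1 group called 0 members higher, 0 lower, and 0 genes in each direction (540 genes at an unadjusted p under 0.05). That dispersion also takes in the difference between shRNA and control, which lowers the number of calls. Why DESeq2 called fewer genes was not tested. Across RLE, upper-quartile and total-count scaling, no filter on low counts, the newer quasi-likelihood method and limma-voom, 4 to 7 members rose and 2 fell. The last 2 of these alternatives were chosen after seeing the data. RLE scaling kept 6 of the 8 calls, DESeq2 kept 5 and limma-voom kept 7. The sign of Mmp28, which was not called, turned with upper-quartile (0.0084) and total-count scaling (0.014). Members at least 2-fold higher in both libraries (2) and lower (1) became 4 to 8 and 1 to 2 when 1 Tead4 shRNA library was left out, because then 1 library had to pass. The members' median log2 fold change, 0.42, ran from 0.20 without hairpin A to 0.50 without hairpin B. No test was possible without either, since no residual degree of freedom is left. With a minimum of 5 or 30 summed reads in place of 10, 38 or 26 members counted as detected. No paired analysis was possible because the single control library gives no pairs. For members with few reads the counting intervals are wide: that of Adamts17 (7, 1 and 6 reads) ran from -8.63 to -0.17 with hairpin A.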
